A study of Mus musculus with 6 samples.

Results

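The mRNA of 10 genes that set the pace of the G1 phase was compared between WT and RORγt N275D Th17 cells. They are the D-type cyclins *Ccnd2* and *Ccnd3*, the E-type cyclins *Ccne1* and *Ccne2*, the kinases *Cdk4* and *Cdk6*, and the kinase inhibitors *Cdkn1a*, *Cdkn1b*, *Cdkn2c* and *Cdkn2d*. They were taken by gene symbol, and all 10 are among the 16244 genes of the table and among the 11908 genes that passed the filter on low values. The 6 libraries were 3 from WT cells and 3 from cells of CRISPR knock-in mice, which carry the N275D substitution in RORγt. The methods describe both genotypes as C57BL/6. The paper's list of resources gives the WT stock as the C57BL/6NJ substrain and names no substrain for the knock-in. The paper lists WT mice bought from a vendor and another source for the knock-in, and mentions littermates only for the transfer experiments. Naive CD4+ T cells of young adult mice, labelled as spleen, were activated through CD3 and CD28 and polarised for 3 days under pathogenic Th17 conditions. The series' design text names IL-6, IL-1β and IL-23 for this culture, whereas the methods list IL-23 and IL-1β in addition to TGF-β, IL-6 and antibodies against IL-4 and IFN-γ. Both genotypes had the same stimulation, so no unstimulated or non-pathogenic culture stands beside them. The knock-in is in the germline, so it is not limited to T cells, and the zygosity of the mice used for RNA-seq is not given in the sources used here. The study states in general that n counts independent samples, mice or experiments, but neither the labels nor the RNA-seq methods say whether the 3 libraries of a genotype came from separate mice or cultures. The p-values rest on the spread between these libraries, which may be technical, and those of limma also draw on variance pooled over genes.

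In a cell that has received a mitogenic signal, D-type cyclins bind CDK4 or CDK6 and start the phosphorylation of the retinoblastoma protein, which releases E2F transcription factors. E2F then drives transcription of the E-type cyclins, which bind CDK2 and carry the cell past the restriction point into S phase. The INK4 inhibitors, p18 (*Cdkn2c*) and p19 (*Cdkn2d*) among them, block CDK4 and CDK6, whereas the Cip/Kip inhibitors p21 (*Cdkn1a*) and p27 (*Cdkn1b*) act mainly on CDK2 complexes. In T cells this machinery couples the antigen receptor, CD28 and cytokines to clonal expansion. Much of it is set by protein turnover and phosphorylation, which mRNA does not show.

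The libraries held 17666143 to 18182534 normalised reads each, a normalised read being a read count that the authors had scaled by 1 factor per library. The WT library of replicate 3 lay farthest from the mean of its genotype, and for the G1 members the values without it are given where it decides a call. Th17 markers summed to between 62784 and 67445 normalised reads in WT and between 77322 and 78695 in N275D, with all 5 called higher. *Il17a* and *Il17f* gave most of that sum. The T cell markers summed to between 17120 and 17711 in WT and between 15971 and 16154 in N275D, with 1 of 5 called higher and 2 lower. *Cd4*, the largest part, fell (9143 ± 331 to 7591 ± 26.1), as did *Cd3e*, whereas *Cd28* rose and *Cd3d* and *Cd3g* were not called. Of all genes tested, 24.7% were called higher and 26.1% lower. B cell markers ran from 1130 to 1168 in WT and from 1722 to 1779 in N275D. Of these 7 genes, 5 were called higher, *Ebf1* gave most of the sum, and the defining marker *Ms4a1* stood at 0 to 1.01 in WT and 3.99 to 9.88 in N275D. The summed markers of CD8 T cells (118 to 142 in WT, 172 to 179 in N275D) were also higher, at a low level. Of these 2 genes *Cd8b1* was called higher, whereas *Cd8a* was not called (32.6 ± 6.70 to 27.6 ± 2.67). The natural killer sum was higher too (61.9 to 90.8 in WT, 116 to 138 in N275D), with 2 of 3 genes called higher, *Klrd1* and *Klrk1*. The other, *Klrb1c*, was under the filter, at 0 to 2.02 in WT and 0 in N275D. Markers of myeloid cells overlapped (83.8 to 97.2 in WT, 89.9 to 115 in N275D), and of the 2 tested the macrophage gene *Adgre1* was called lower (22.6 ± 3.22 to 6.64 ± 3.05). None of these markers was at 0 in every library, and their part in the results that follow was not tested. In bulk RNA, fewer cells of a type and less RNA per cell cannot be told apart.

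In the knock-in 5 of the G1 genes fell, *Cdkn1a*, *Ccne2*, *Ccne1*, *Ccnd3* and *Cdk4*, and *Ccnd2* was the only member that rose. *Cdk6*, *Cdkn1b*, *Cdkn2c* and *Cdkn2d* did not pass the test. Thus 6 of 10 members (60%) were called by limma at an adjusted p under 0.05, against 50.9% of all 11908 genes tested, a share near the background. In the downward direction 5 of 10 were called against 26.1% of all genes, and in the upward direction 1 of 10 against 24.7%. The same 6 genes had genotypes that did not overlap, 1 upward and 5 downward, against 28.1% and 29.6% of all genes. No member reached a 2-fold difference, which 3.59% of all genes did. The sizes of the called differences ran from 0.20 to 0.44 on the log2 scale, and the median over the 10 members was −0.14, beside −0.0026 over all genes tested. Fold changes are N275D over WT on the scale of log2(normalised reads + 1).

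**Figure D1:**
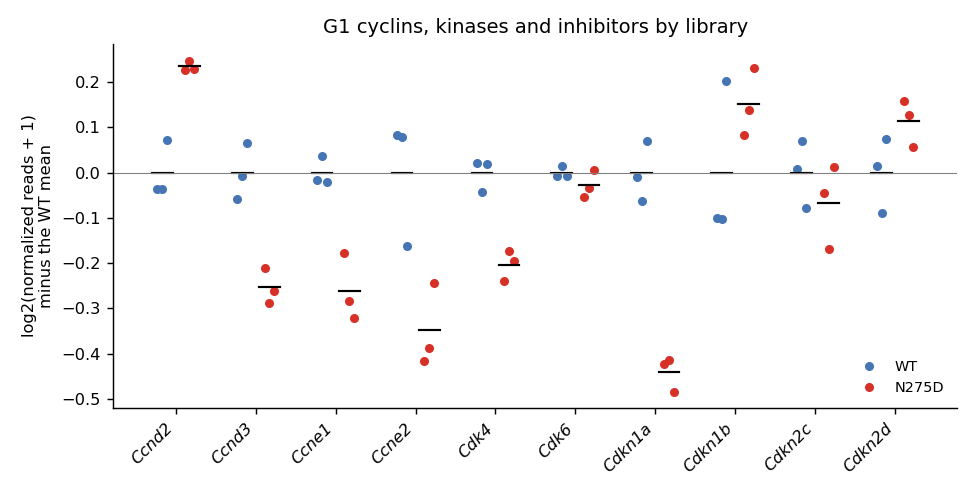
Each point is 1 library, its log2(normalised reads + 1) less the mean of the WT libraries for that gene, in blue for WT and red for N275D (n = 3 each), with a bar at each genotype mean. *Ccnd2* lies above the WT range, *Ccnd3*, *Ccne1*, *Ccne2*, *Cdk4* and *Cdkn1a* lie below it, and the genotypes overlap for *Cdk6*, *Cdkn1b*, *Cdkn2c* and *Cdkn2d*.

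The D-type cyclins moved in opposite directions. *Ccnd2* (GRCm38 chr6:127125162-127152193, minus strand) encodes cyclin D2, a D-type cyclin that lymphocytes induce on activation, and had 12514, 12507 and 13475 normalised reads in the WT libraries and 15007, 15230 and 15042 in the N275D libraries. Every N275D library was above every WT library, and the N275D values lay closer together. The mean rose from 12832 ± 557 to 15093 ± 120 (SD over 3 libraries, as in all that follows), which is 0.23 on the log2 scale (SE 0.04, limma adjusted p = 4.77e-05). *Ccnd3* (chr17:47505051-47599691, plus strand) encodes cyclin D3, which proliferating lymphocyte precursors depend on, and had 6055, 6279 and 6598 normalised reads in WT and 5449, 5163 and 5261 in N275D. All N275D libraries were below all WT libraries. The mean fell from 6311 ± 273 to 5291 ± 145, a log2 fold change of −0.25 (SE 0.04, adjusted p = 5.99e-05). *Ccnd1*, the third D-type cyclin, was at 3.03 to 8.84 normalised reads in WT and 8.89 to 11.0 in N275D, under the filter and not tested.

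Because the scaling between libraries cancels in a ratio of 2 genes of the same library, the ratio of the paralogs was taken as well. The log2 ratio of *Ccnd2* to *Ccnd3* reads was 1.05, 0.99 and 1.03 in WT and 1.46, 1.56 and 1.51 in N275D. The genotypes were separated by many times the spread within either, with means of 1.02 ± 0.03 and 1.51 ± 0.05 (SD, n = 3 each), a difference of 0.49. The two-sided exact permutation p was 0.1, the smallest that 3 libraries against 3 allow, and 0.167 after Benjamini-Hochberg adjustment over the 5 pairs compared. On reads per kilobase of exon, the share of cyclin D2 in the summed D2 and D3 mRNA went from 65.5 ± 0.426% in WT to 72.7 ± 0.681% in N275D. A limit on *Ccnd3* is that its exons share bases with *Bysl* on the opposite strand, a ribosome biogenesis gene that fell from 2429 ± 57.7 to 1859 ± 79.0 (log2 fold change −0.39, adjusted p = 2.25e-06). The libraries were strand-specific, but whether the counting used the strand is not given in the sources used here, so the assignment of reads in the overlap is uncertain. The same holds for opposite-strand transcripts that share exon bases with *Ccnd2*, *Cdk6* and *Cdkn1a*.

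Both E-type cyclins, the partners of CDK2 at the G1/S boundary, fell. *Ccne1* (chr7:38097984-38107534, minus strand) had 1832, 1899 and 1825 normalised reads in WT and 1637, 1520 and 1481 in N275D. The genotypes did not overlap. Its mean fell from 1852 ± 41.1 to 1546 ± 81.2, a log2 fold change of −0.26 (SE 0.05, limma adjusted p = 0.000229). *Ccne2* (chr4:11191351-11204779, plus strand) had 1342, 1340 and 1134 in WT and 950, 969 and 1071 in N275D. Here the WT library of replicate 3 was the lowest of its genotype and the N275D library of replicate 3 the highest, which left the narrowest gap among the called members. The mean fell from 1272 ± 120 to 997 ± 64.6, a log2 fold change of −0.35 (SE 0.07, adjusted p = 0.000353).

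The log2 ratio of *Ccne1* to *Ccne2* overlapped between genotypes, at 0.55 ± 0.12 in WT and 0.63 ± 0.16 in N275D, a difference of 0.09 (exact permutation p = 0.6, adjusted p = 0.6). *Ccne2* shares exon bases with *Ints8*, an Integrator subunit gene on the opposite strand, which stood at 1171 ± 50.8 in WT and 1080 ± 66.4 in N275D (log2 fold change −0.12, limma adjusted p = 0.0835).

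Of the kinases that D-type cyclins activate, *Cdk4* fell and *Cdk6* did not pass the test. *Cdk4* (chr10:127063534-127067920, plus strand) had 5693, 5448 and 5687 normalised reads in WT and 4748, 4974 and 4895 in N275D, with no overlap. Its mean fell from 5609 ± 140 to 4872 ± 115, a log2 fold change of −0.20 (SE 0.04, limma adjusted p = 0.000238), the least of the 6 called members, and −0.11 under quantile normalisation (adjusted p = 0.0149). *Cdk6* (chr5:3341485-3531008, plus strand) had 5415, 5498 and 5410 in WT and 5242, 5318 and 5460 in N275D, and the ranges overlapped. Its log2 fold change was −0.03 with a 95% confidence interval from −0.10 to 0.05 (adjusted p = 0.538), and its sign turned to 0.06 under quantile normalisation.

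The log2 ratio of *Cdk4* to *Cdk6* reads was 0.07, −0.01 and 0.07 in WT and −0.14, −0.10 and −0.16 in N275D. The genotypes did not overlap, and the difference was −0.18 (exact permutation p = 0.1, adjusted p = 0.167). *Cdk4* overlaps *Tspan31*, a tetraspanin gene on the opposite strand, whose level was 1346 ± 50.2 in WT and 1309 ± 15.8 in N275D (log2 fold change −0.04, limma adjusted p = 0.491).

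The promoter of *Cdk4* is shown for an element that it repeats. In the 250 bases before the RefSeq start (GRCm38.p6 chr10:127063285-127063534, plus strand), printed 5′ to 3′ with each CACGTG in capitals, this palindromic E-box, the letters that MYC and MAX bind, occurred 4 times, at positions −172, −118, −98 and −11 from the start.
Cdk4: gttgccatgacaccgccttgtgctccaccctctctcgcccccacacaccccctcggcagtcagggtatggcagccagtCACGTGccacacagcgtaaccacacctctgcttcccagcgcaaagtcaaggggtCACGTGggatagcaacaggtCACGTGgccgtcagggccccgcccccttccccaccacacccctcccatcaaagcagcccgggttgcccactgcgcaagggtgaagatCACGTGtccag
The *Cdk6* window held 1 CACGTG, at −220, and 6.02% of 32851 RefSeq promoter windows of the same length held at least 1. The share of windows that held 4 was not computed. Each of these matches also holds ACGTG, the core of the hypoxia response element, on both strands. On either strand, ACGTG or GCGTG was in every member window except the first ones of *Ccnd3* and *Cdkn1a*, and in 38.6% of all windows. RefSeq windows were found for 8 of the 10 members, all but *Ccnd2* and *Ccne2*. A match of letters is a description and not evidence of binding, and the motifs and the windows printed were chosen after the values and the sequences had been seen.

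Among the inhibitors, *Cdkn1a* had the largest change of all members and the others did not pass the test. *Cdkn1a* (chr17:29090976-29100727, plus strand), which encodes p21, had 12090, 11650 and 12776 normalised reads in WT and 9069, 9124 and 8697 in N275D. The lowest WT library was well above the highest N275D library. The mean fell by 26.3%, from 12172 ± 568 to 8963 ± 232, a log2 fold change of −0.44 (SE 0.04, 95% confidence interval −0.52 to −0.36, limma adjusted p = 1.23e-07). Of all genes tested, 16.1% had a larger difference in either direction. The genes whose pattern over the 6 libraries lay nearest to it, by the root mean square difference of centred log2 values, were *Smpd4* (0.0120), *Rrp12* (0.0125) and *Usp36* (0.0153). Those nearest to *Ccne2*, the member with the next largest change, were *Parpbp* (0.0281), *Inpp4b* (0.0299) and *Hells* (0.0314). How many other genes lay nearly as close was not counted, and shared regulation was not tested.

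*Cdkn1b*, which encodes p27, the inhibitor that resting T cells keep high (chr6:134920401-134925513, plus strand), had 491, 489 and 605 in WT and 557, 579 and 617 in N275D. The WT library of replicate 3 lay within the N275D range and the other WT libraries below it. The log2 fold change was 0.15 (95% confidence interval −0.01 to 0.32, limma adjusted p = 0.115). Without that library it was 0.25 and passed the test (adjusted p = 0.00109). The log2 ratio of *Cdkn1a* to *Cdkn1b* was 4.53 ± 0.12 in WT and 3.94 ± 0.11 in N275D, with no overlap and a difference of −0.59 (exact permutation p = 0.1, adjusted p = 0.167), the widest of the 5 pairs.

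Neither INK4 member passed the test. *Cdkn2d* (chr9:21288410-21291407, minus strand) had 1395, 1298 and 1456 normalised reads in WT and 1542, 1510 and 1436 in N275D, and only the WT library of replicate 3 reached into the N275D range. Its log2 fold change was 0.11 (95% confidence interval 0.01 to 0.22, limma adjusted p = 0.0711), and without the WT library of replicate 3 it was 0.15 and passed (adjusted p = 0.00592). *Cdkn2c* (chr4:109660876-109667189, minus strand) had 154, 161 and 145 in WT and 149, 136 and 155 in N275D. The ranges overlapped, and the log2 fold change was −0.07 (95% confidence interval −0.27 to 0.13, adjusted p = 0.576), or −0.19 under quantile normalisation (adjusted p = 0.0989). The log2 ratio of *Cdkn2c* to *Cdkn2d* was −3.16 ± 0.16 in WT and −3.34 ± 0.13 in N275D, with overlap (difference −0.18, exact permutation p = 0.2, adjusted p = 0.25). The remaining inhibitors of these families were scarce, *Cdkn2a* at 27.2 to 58.0 in WT and 32.6 to 41.9 in N275D (log2 fold change −0.12, adjusted p = 0.697), and *Cdkn1c* and *Cdkn2b* under the filter.

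**Figure D2:**
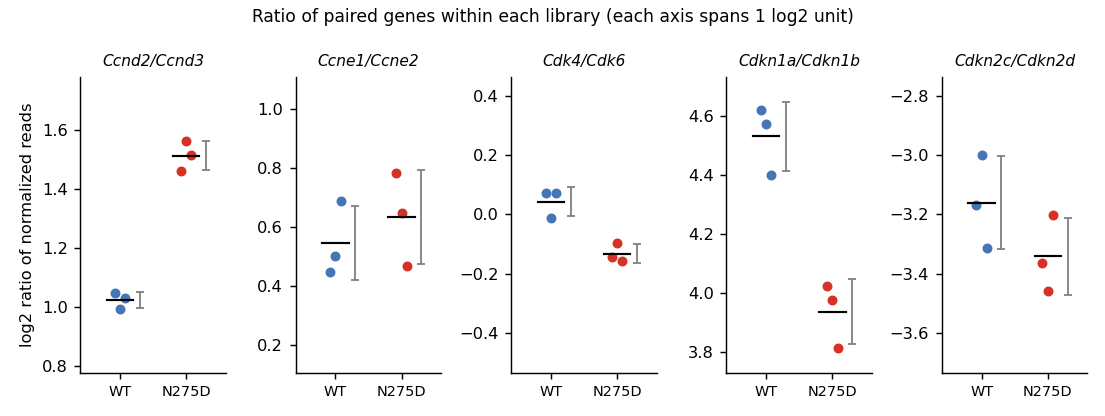
The log2 ratio of normalised reads for each of the 5 pairs of related genes, 1 point per library, with a black bar at the mean of each genotype and a grey bar for ± 1 SD (n = 3 each), every axis spanning 1 log2 unit. WT and N275D do not overlap for *Ccnd2*/*Ccnd3* (difference 0.49), *Cdk4*/*Cdk6* (−0.18) and *Cdkn1a*/*Cdkn1b* (−0.59), and overlap for *Ccne1*/*Ccne2* and *Cdkn2c*/*Cdkn2d*. Of all single genes tested, 57.7% had genotypes that did not overlap, and no such share was computed for ratios.

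To compare the genes with each other, reads were divided by the length of the union of GENCODE M21 exons. By this measure *Cdkn1a* was the highest of the 10 in both genotypes, at 3426 reads per kilobase in WT and 2523 in N275D, and *Cdkn2c* the lowest, at 57.2 and 54.6. *Cdk4* (1726) stood above *Ccnd2* (1364) in WT, whereas *Ccnd2* (1604) stood above *Cdk4* (1500) in N275D, and this was the only exchange of places between the genotypes. Below them came *Cdkn2d* (879 in WT, 950 in N275D), *Ccnd3* (719 and 603), *Ccne1* (696 and 581), *Cdk6* (389 and 382), *Ccne2* (364 and 285) and *Cdkn1b* (116 and 128). *Ccnd3* and *Ccne1* were the only neighbours in this order whose libraries overlapped, and they did so in both genotypes. Exon unions of genes with long alternative UTRs, such as *Ccnd2*, *Ccnd3* and *Cdk6*, understate the level of a shorter transcript.

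**Figure D3:**
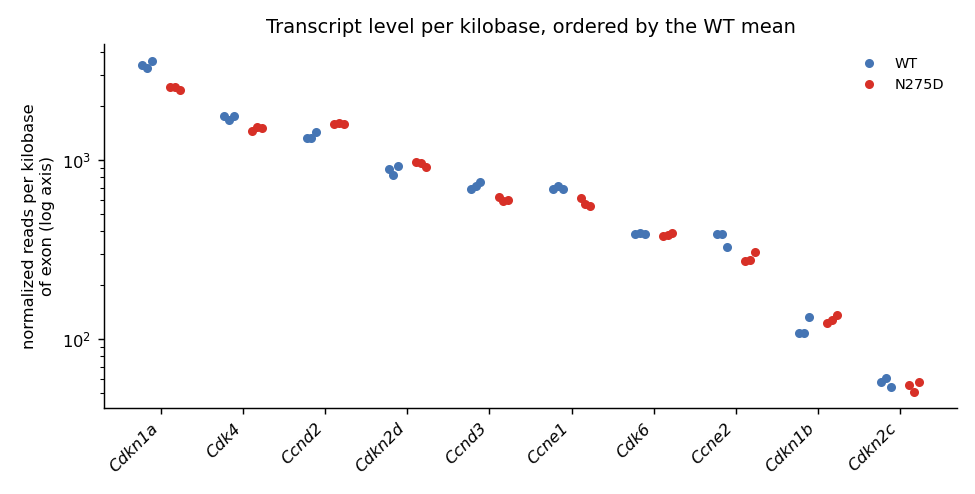
Normalised reads per kilobase of exon union on a log axis for the 10 genes, 1 point per library, in blue for WT and red for N275D (n = 3 each), ordered by the WT mean. The means run from *Cdkn1a* (3426 in WT, 2523 in N275D) to *Cdkn2c* (57.2 and 54.6), and *Ccnd2* and *Cdk4* exchange places.

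The genes downstream of the G1 cyclins were read from lists of the pathway. Of 20 S phase entry targets of E2F, 16 fell, none rose and 4 did not pass the test, beside 26.1% of all genes tested called lower and 24.7% called higher. The median of their log2 fold changes was −0.25. The largest falls were of *Tyms*, thymidylate synthase (1955 ± 19.6 to 1449 ± 53.9, log2 fold change −0.43), *Mcm5*, a subunit of the replicative helicase (8634 ± 232 to 6562 ± 175, −0.40), and *Prim1*, the primase subunit (1064 ± 70.4 to 818 ± 27.8, −0.38). Their limma adjusted p-values were 6.56e-07, 1.96e-07 and 4.01e-05. Among 13 pocket proteins and E2F factors, 5 fell, 2 rose and 6 did not pass (median −0.07), a called share near the 50.9% of all genes. *Tfdp1*, the DNA-binding partner of the E2Fs, fell from 7476 ± 259 to 5717 ± 99.8 (−0.39, adjusted p = 3.02e-07), and the repressor *E2f7* (−0.31) and *E2f4* (−0.23) fell with it. *Tfdp2* (0.17) and *Rbl2*, which encodes the pocket protein p130 (0.15), rose.

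Of 21 other cyclins, kinases and regulators, 18 were tested, 10 fell, none rose and 8 did not pass (median −0.14), again a called share near 50.9% in either direction, beside 26.1% of all genes called lower. The largest falls were of *Ccng1* (8099 ± 371 to 5760 ± 151, −0.49), *Ccnf*, a substrate receptor of a ubiquitin ligase (1713 ± 48.6 to 1226 ± 30.4, −0.48), and *Ccna2*, the S phase cyclin (4385 ± 139 to 3345 ± 53.6, −0.39). *Cdk2*, the kinase that E-type cyclins activate, fell by 0.13 (limma adjusted p = 0.0224). Of 14 tested genes for the turnover of G1 cyclins and inhibitors, 5 fell, 1 rose and 8 did not pass (median −0.06), a called share below the 50.9% of all genes. *Cks2* (−0.36), a small subunit of cyclin-dependent kinases, *Skp2* (−0.28), a subunit of the ligase that degrades p27, and *Fbxw7* (−0.25), the ligase subunit that recognises cyclin E, fell, and *Dtl*, which directs p21 to degradation in S phase, rose (0.13). *Cks1b*, the cofactor of *Skp2* in that step, did not pass (−0.03, limma adjusted p = 0.552). *Dtl* did not pass when any of 3 libraries was left out, and the rise of *Rbl2* did not for 2 and of *Tfdp2* for 1.

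**Figure D4:**
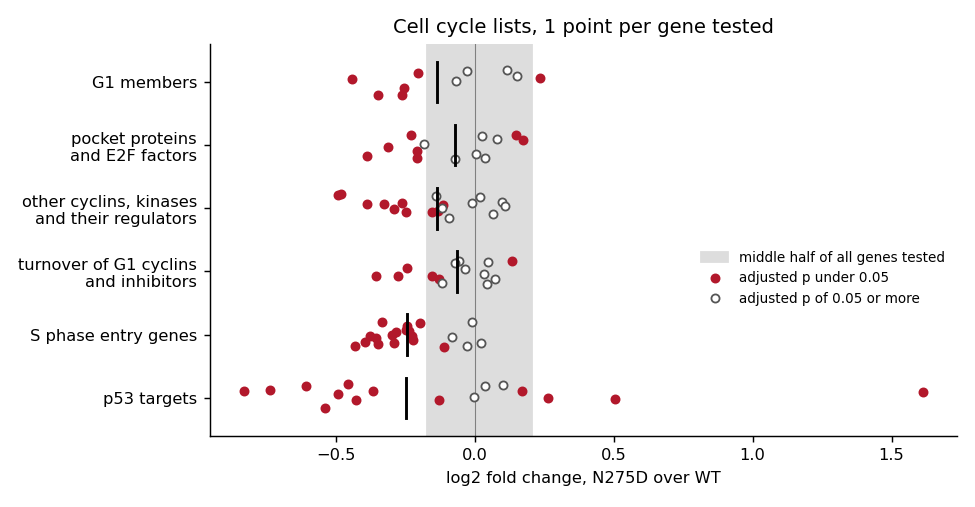
Log2 fold change, N275D over WT, of each tested gene of the 5 lists and of the 10 G1 genes, with filled points for genes called by limma at an adjusted p under 0.05, open points for the rest, a bar at each median and a grey band from the lower to the upper quartile of all genes tested (−0.17 to 0.20). The medians are −0.14 for the G1 genes and −0.25 for both the S phase entry targets of E2F and the p53 targets, beside −0.0026 over all genes tested.

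*Cdkn1a* is a classical target of the transcription factor p53, so other p53 targets were set beside it. Of 16 such genes 9 fell, 4 rose and 3 did not pass, with a median of −0.25, beside 26.1% of all genes called lower and 24.7% higher. Those that fell most were *Eda2r*, a receptor of the TNF receptor family (133 ± 12.4 to 74.4 ± 7.72, log2 fold change −0.83), *Phlda3*, an inhibitor of AKT (1242 ± 62.5 to 744 ± 31.1, −0.74), and the death receptor *Tnfrsf10b* (1020 ± 29.4 to 669 ± 30.8, −0.61), with limma adjusted p-values of 2.9e-05, 1.44e-08 and 1.29e-07. *Ccng1*, listed above, is on this list too. *Gadd45a*, a growth arrest and DNA damage gene, rose from 64.3 ± 8.83 to 198 ± 19.5 (1.61, adjusted p = 2.45e-08) and was the only gene of the 5 lists past 2-fold. *Pmaip1*, which encodes the cell death protein NOXA, rose from 306 ± 24.7 to 434 ± 6.06 (0.51), and *Sesn1*, a stress-induced regulator of mTORC1, from 220 ± 11.5 to 264 ± 22.8 (0.26). *Sesn1* did not pass under quantile normalisation or when either of 2 libraries was left out. *Trp53*, which encodes p53 and was added after its value was seen, stood at 3316 ± 100 in WT and 3086 ± 117 in N275D with overlapping libraries (−0.10, adjusted p = 0.0459), a call that 8 of 15 alternatives lost.

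**Figure D5:**
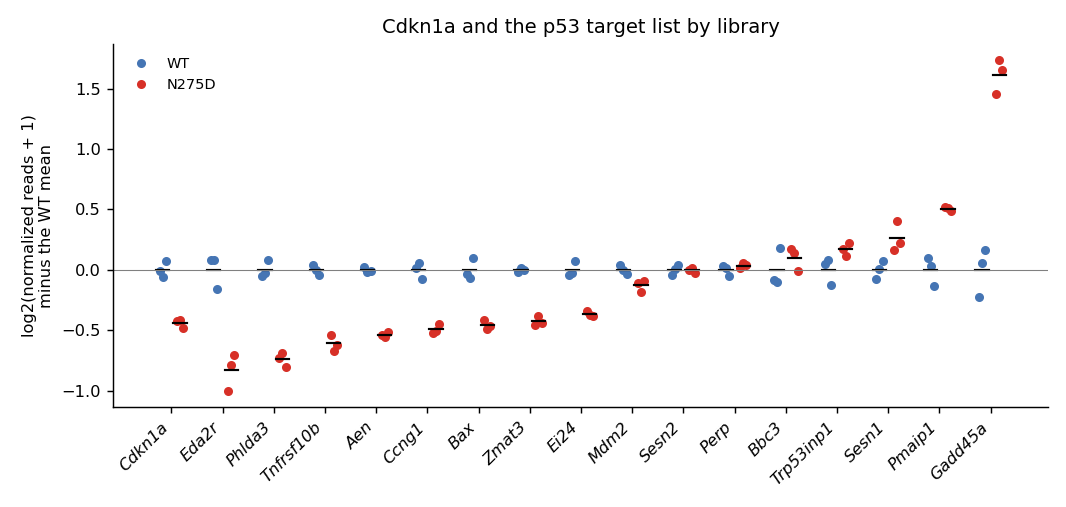
Each point is 1 library of *Cdkn1a* or 1 of the 16 p53 targets, its log2(normalised reads + 1) less the WT mean, in blue for WT and red for N275D (n = 3 each), with a bar at each genotype mean. *Cdkn1a* and 9 of the targets lie below the WT range, among them *Eda2r*, *Phlda3* and *Tnfrsf10b*. Above it lie 4 targets, among them *Gadd45a*, *Pmaip1* and *Sesn1*.

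The window before the upstream start of *Cdkn1a* is shown for the letters of a p53 response element, 2 decamers side by side. In the 250 bases before that RefSeq start (GRCm38.p6 chr17:29090729-29090978, plus strand), with the 20 bases in capitals, it lay at position −51.
Cdkn1a: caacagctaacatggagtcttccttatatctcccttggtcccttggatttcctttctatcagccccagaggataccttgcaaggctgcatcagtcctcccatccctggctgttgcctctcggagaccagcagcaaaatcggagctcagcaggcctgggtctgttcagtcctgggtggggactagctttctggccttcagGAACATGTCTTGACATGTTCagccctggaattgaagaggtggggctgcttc
Both decamers were searched on either strand by their consensus with at most 1 mismatch over the 20 bases, which 25 of 32851 windows (0.0761%) held. The single decamer consensus occurred at −73 and −51, the latter within the 20 bases, at −102 in the *Cdkn2d* window, and in 7.13% of all windows. The window before the second *Cdkn1a* start (chr17:29093519-29093768) held neither. The search of 20 bases and its tolerance were set after this window had been read. Letters of the E2F site (TTNNCGC with C or G at each N, on either strand, 7.89% of windows) were found in the first *Cdkn2c* window and in no other window of a member. AGGTCA, a half-site of nuclear receptors, was searched on both strands, and 14.0% of windows held it. Among the members it was in the first *Ccnd3* window (−97), the *Cdk4* window (−102) and the second *Cdkn2c* window (−180).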

How the data were processed

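RNA-seq was read from 1 table with 3 WT and 3 N275D libraries, assigned to genotype and replicate by their labels. Per the study's methods, the authors used STAR for alignment to mm10, featureCounts for counting and DESeq2 for the genotype comparison. The libraries were strand-specific. Tool versions, annotation, the strand setting of the counting and the treatment of shared reads are not given in the sources used here. The deposited values were a signal, read counts that the authors had multiplied by 1 factor per library, and every value was a whole multiple of its library's factor within 1e-06. The table's mean, fold and q-value columns were not used. Totals were 17666143 to 18182534 normalised reads per library (17659035 to 18510878 before scaling), and replicates of a genotype differed by a median SD of 0.08 in log2 units.

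Values were taken as log2(normalised reads + 1) for genes averaging 10 or more across the 6 libraries and tested with limma 3.58.1 in R 4.3.3 (genotype as the only term, trended eBayes, Benjamini-Hochberg over 11908 genes, called at an adjusted p under 0.05). Ratios of paralogs were tested with a two-sided exact permutation test. The script was tested on simulated data. The members and gene lists were chosen with earlier results of these data known. Named genes were all members and, of each list, those past 2-fold plus the 3 highest and 3 lowest of the called genes without overlap. For the 2 members with the largest change, the 3 genes of nearest pattern were named. *Cdk2*, *Cks1b*, *Trp53*, genes on the opposite strand and the scarce cyclin and inhibitors were added after their values were seen. So were the named T cell, Th17, CD8, myeloid and natural killer markers. Of the Th17 markers, 1 gene is not reported here. Of the other markers, 5 of 6 T cell, 3 of 4 natural killer and 0 of 4 gamma delta T cell genes were in the table. Coordinates were from GENCODE M21 (GRCm38) and promoter windows from RefSeq (GRCm38.p6).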

Additional observations from a re-analysis of the deposited data

How the results depend on the processing

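Of 520 fold changes and ratios recomputed under alternatives, 498 counted as the same. A fold change had to keep its side of the threshold, and a ratio had to move by less than its pooled SD within genotypes. No called value changed direction, while *Cdk6*, which was not called, changed sign. Of 180 recomputed counts of called genes, 169 stayed within 1.5 times the reported count. In every alternative 5 members were called lower. Without a trended prior the limma adjusted p-values were larger, at 0.00148 for *Cdkn1a* and 0.00873 for *Ccnd2*. The number called higher, 1 in the report, was 2 under quantile normalisation and 3 with library weights, and 1 to 3 when 1 library was left out. *Cdkn1b* passed with library weights (0.21, limma adjusted p = 0.00627) and ran from 0.10 to 0.25 when 1 library was left out. *Cdkn2d* passed under quantile normalisation (0.15, adjusted p = 0.0236) and with library weights (0.14, adjusted p = 0.0124) and ran from 0.070 to 0.15. The turnover list had 3 genes called lower under quantile normalisation instead of 5. Leaving out 1 library gave 1 to 2 pocket and E2F genes, 0 to 1 other cyclins and regulators and 0 to 1 turnover genes called higher. *Trp53* was lost with no filter, under quantile normalisation, without a trended prior, with the block and without any of 4 libraries. The causes were not tested. TMM factors were computed from their published definition. The edgeR and DESeq2 alternatives were not run. The values are whole multiples of 1 factor per library, and these multiples gave the totals before scaling, but they were not put through a count test.

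In the labels, libraries with the same number had only that number in common, and whether they shared a culture or day is not stated. Their deviations from the genotype means correlated at −0.05, 0.04 and −0.08, beside −0.05 to 0.09 for libraries of other numbers. With the replicate number as a block, 5727 genes were called instead of 6056, the members kept 1 call upward and 5 downward, and the ratio of *Ccnd2* to *Ccnd3* had a sign-flip exact permutation p of 0.25, the smallest that 3 pairs allow.

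The smallest exact permutation p of 0.1 limits every ratio. How often ratios of other gene pairs do not overlap between genotypes was not computed, beside 57.7% of single genes tested. Depth limits *Ccnd1*, *Cdkn1c* and *Cdkn2b*, which had under 10 normalised reads on average. Genotype and any difference in substrain, in colony of origin, in culture or in the share of other cells cannot be told apart in 3 libraries against 3.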
